A study of Mus musculus with 2 samples.

Results

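Granzymes are serine proteases that natural killer (NK) cells and cytotoxic T cells store in granules. Perforin, the product of *Prf1*, opens the membrane of a target cell, and granzymes that enter through it cleave intracellular proteins. *Nkg7* encodes a membrane protein of cytotoxic granules, *Ifng* encodes interferon gamma, the cytokine that activates macrophages, and *Xcl1* encodes a chemokine that attracts dendritic cells through its receptor XCR1. In skin, such cells include NK cells, innate lymphoid cells and gamma-delta T cells of the epidermis. The genes described here are 10 of the 31053 genes counted in each library, taken by symbol: *Gzma*, *Gzmb*, *Gzmc*, *Gzmd*, *Gzme*, *Gzmf*, *Prf1*, *Nkg7*, *Ifng* and *Xcl1*. All 10 had at least 1 UMI (a counted RNA molecule) in the cells used, but *Gzmd* had a single one.

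The data are 2 single-cell RNA-seq libraries of live, 7AAD-negative cells from day 5 wounds in the back skin of C57BL/6 mice aged 7 to 9 weeks. The wound bed was collected together with back skin by a 10 mm punch. The labels describe both groups as *Mrc1-DTR* mice, in which the promoter of *Mrc1*, the gene encoding CD206, drives the receptor for diphtheria toxin, 1 group given PBS and the other diphtheria toxin (DTX). The study's methods instead describe the controls as wild-type mice given the toxin, and state that cells came from 3 mice per group, with technical but no biological replicates. How the mice and the technical replicates were joined in a library is not stated, and macrophages other than those with active *Mrc1* are not targeted by the construct. With 1 library per condition, no difference between them could be tested, and all intervals are 95% intervals for counting error alone.

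RNA of the targeted gene *Mrc1* (chromosome 2, 14229392 to 14332057) was still found in the library labelled DTX. It stood at 429 CPM (421 to 436) in macrophage-like cells there, where CPM are UMIs scaled to the summed UMIs of the same cells, and at 493 CPM (478 to 508) in the library labelled PBS. A UMI of *Mrc1* was held by 65.2% of DTX-labelled and 71.9% of PBS-labelled macrophage-like cells. Over all cells used the shares were 49.1% and 20.5%, where macrophage-like cells made up 67.1% and 21.5% of the cells. The study measured depletion otherwise. By flow cytometry and immunostaining of day 5 wounds it found fewer CD206-positive macrophages, and it discusses the depletion as partial. From single-cell data of *Mrc1-DTR* wounds it also reported a smaller share of *C1qa*-positive macrophages and a larger share of *Ccl7*-positive ones. It describes *Mrc1* as relatively high in both. The values here are RNA levels and shares of sequenced cells, not counts of cells per wound. The PBS-labelled library had 12058 deposited barcodes and the DTX-labelled one 11031, and immune classes made up 2671 of 7944 and 5539 of 6613 cells used. The study's text gives the larger cell number to the *Mrc1-DTR* group, against the labels, and the larger immune share to the same group, which goes with them. The libraries are therefore named by their labels throughout, and every direction given below rests on those labels. Barcodes were required to hold 500 genes or more, with mitochondrial UMIs making up no more than 6%, and called doublets were removed. This left 7944 PBS-labelled cells with a median of 9579.5 UMIs and 6613 DTX-labelled cells with a median of 7286 UMIs. Of their barcodes, 13 occurred in both libraries.

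NK-like and T-like cells were a small class of the wound. Clusters 7 and 13 of 16 clusters carried the T cell markers, all 12 of them raised in both, together with 9 and 5 of 10 NK markers. None of the 10 genes was used to cluster them or stood in a marker list. Naming also counted the markers among the 10 leading genes of a cluster. *Gzma*, *Gzmb*, *Gzmc* and *Nkg7* took places among those of cluster 7, and *Nkg7* among those of cluster 13. The class had 225 cells in the PBS-labelled library, 2.83% (2.48 to 3.22) of its cells, and 151 cells in the DTX-labelled library, 2.28% (1.94 to 2.67). As a share of immune cells it was 8.42% (7.40 to 9.54) and 2.73% (2.31 to 3.19), while macrophage-like cells made up 21.5% of the first library and 67.1% of the second. The median depth of the class was 6534 and 8059 UMIs per cell. Of the 10 genes, 7 had at least 50 UMIs in the class over both libraries, the minimum for a comparison between them, and *Gzmd*, *Gzme* and *Gzmf* did not.

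Of the members, 5 lie side by side. *Gzmb*, *Gzmc*, *Gzmd*, *Gzme* and *Gzmf* belong to a run of 7 granzyme genes on chromosome 14 of GRCm38, from 56117626 to 56262260 (145 kb), all on the minus strand, in the order *Gzme*, *Gzmd*, *Gzmg*, *Gzmn*, *Gzmf*, *Gzmc*, *Gzmb* by coordinate. *Mcpt8*, a protease gene of basophils, ends 32.4 kb before this run and *Mcpt4*, a protease gene of mast cells, 55.3 kb before it. *Gzma* lies apart on chromosome 13 (113093825 to 113100981, minus strand), *Prf1* (61297833 to 61304680) and *Ifng* (118441046 to 118445892) on the plus strand of chromosome 10, *Nkg7* on the plus strand of chromosome 7 (43437073 to 43438249) and *Xcl1* on the minus strand of chromosome 1 (164931644 to 164935527). Each of the 6 granzyme members has 5 exons in the GENCODE annotation.

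The neighbours on chromosome 14 are close copies, which bears on whether their reads can be told apart. The first 90 coding bases are shown for 5 of them, with capitals where a base differs from *Gzmd* at the same position:
Gzmd: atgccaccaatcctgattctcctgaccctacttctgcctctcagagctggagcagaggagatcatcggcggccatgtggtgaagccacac
Gzme: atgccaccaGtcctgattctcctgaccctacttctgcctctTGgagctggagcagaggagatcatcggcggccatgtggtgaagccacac
Gzmf: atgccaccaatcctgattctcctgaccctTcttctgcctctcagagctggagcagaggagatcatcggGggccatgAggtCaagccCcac
Gzmc: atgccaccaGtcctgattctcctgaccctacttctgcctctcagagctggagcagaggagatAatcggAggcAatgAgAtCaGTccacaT
Gzmb: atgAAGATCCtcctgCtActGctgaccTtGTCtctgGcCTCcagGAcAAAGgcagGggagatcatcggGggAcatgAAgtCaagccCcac
In this stretch *Gzme* differed from *Gzmd* at 3 bases, *Gzmf* at 5, *Gzmc* at 10 and *Gzmb* at 31. Over the whole coding sequence, *Gzmd* and *Gzme* were 93.3% identical, *Gzmb* and *Gzmc* 76.2% and *Gzma* and *Gzmb* 54.6%. The libraries count RNA near the 3′ end, and there the genes are distinct: every 90-base window in the last 400 bases of each of the 10 transcripts occurred in no other gene's transcript. Reads with errors were not considered, so values of *Gzmd*, *Gzme* and *Gzmf* remain uncertain where a neighbour is abundant in the same cell.

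*Gzma*, *Prf1*, *Nkg7*, *Ifng* and *Xcl1* stood highest in NK-like and T-like cells in both libraries. *Gzmb* and *Gzmc* were shared with the mast-like cluster, which also held cells led by basophil proteases, described below. Among 11 classes, which leave out 7 and 11 myocyte-like cells as too few, 6 of the 7 members with at least 50 UMIs were highest in NK-like and T-like cells of the PBS-labelled library, where 17.6% of 13606 genes were, and 5 of 7 in the DTX-labelled library, where 20.4% of 12662 genes were. *Gzmb* was the exception in both and *Gzmc* in the second.

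*Gzma* had 1462 UMIs in NK-like and T-like cells of the PBS-labelled library, 898 CPM (852 to 945), and 2641 UMIs in the DTX-labelled library, 1863 CPM (1793 to 1936). These were 1462 of 1548 and 2641 of 2669 of all its UMIs in the cells used. In mast-like cells it had no UMI in either library. In the other 9 classes combined it stood at 1.08 and 0.53 CPM. With every cell thinned to 2000 UMIs, *Gzma* was detected in 26.0% (20.3 to 32.4) and 28.5% (21.4 to 36.4) of NK-like and T-like cells, against 0.19% and 0.13% of cells in those 9 classes.

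*Prf1* and *Nkg7* likewise stood highest in NK-like and T-like cells, though *Nkg7* was also found in mast-like cells, at 107 and 14.1 CPM. *Prf1* was at 131 CPM (114 to 150) in NK-like and T-like cells of the PBS-labelled library and 182 CPM (161 to 206) in the DTX-labelled library, and at 0.16 and 0.09 CPM in the 9 other classes. *Nkg7* was at 935 CPM (889 to 983) and 1094 CPM (1041 to 1150), and was found in 54.8% and 52.3% of thinned cells, the highest share among the 10 genes. The soluble mediators were also held by this class: *Ifng* at 141 CPM (124 to 161) and 104 CPM (87.6 to 122), and *Xcl1* at 510 CPM (476 to 546) and 314 CPM (285 to 345).

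**Figure D1:**
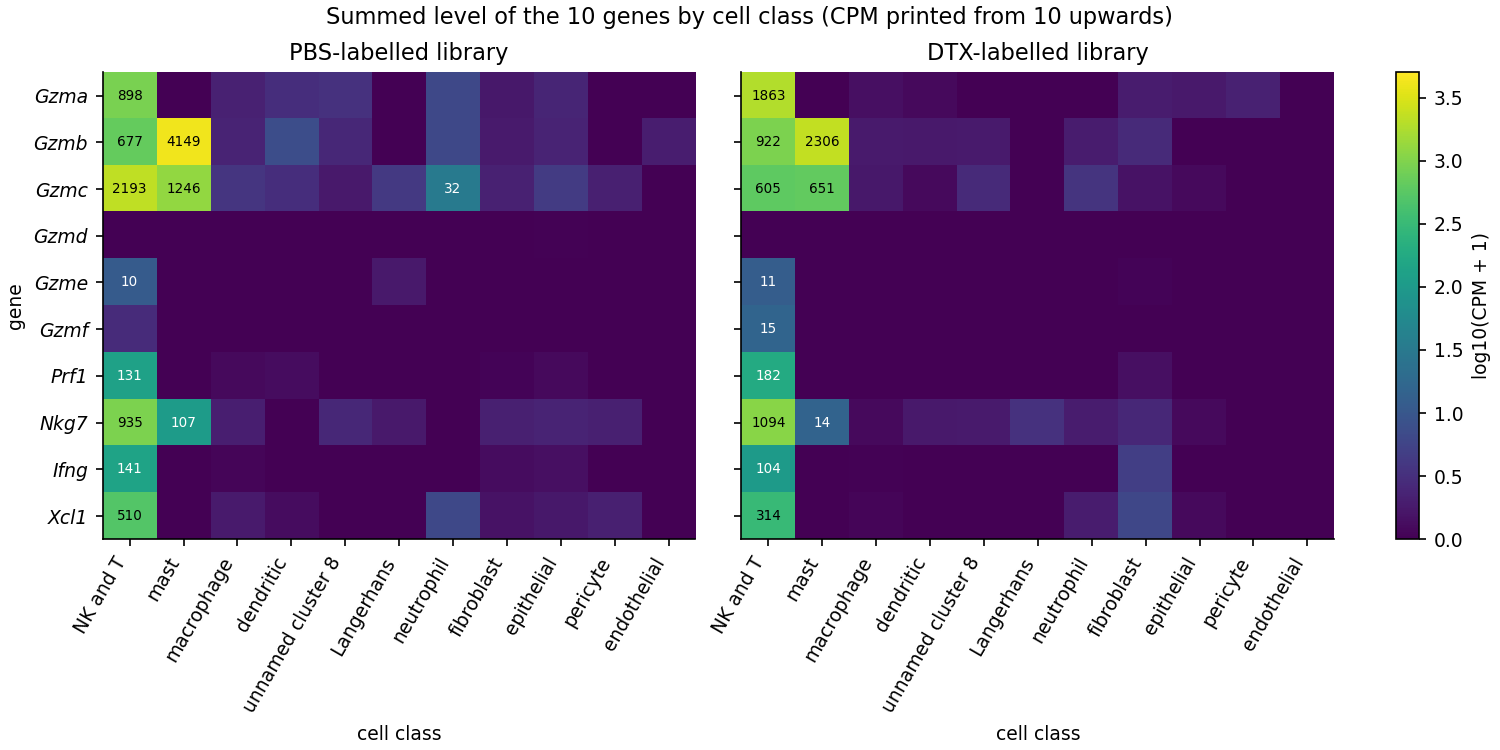
Summed level of each of the 10 genes (rows) in 11 cell classes (columns), 1 panel per library. Colour gives log10(CPM + 1) and numbers give CPM from 10 upwards. *Gzma*, *Prf1*, *Nkg7*, *Ifng* and *Xcl1* are highest in NK-like and T-like cells. The mast-like cluster holds *Gzmb* at 4149 and 2306 CPM and *Gzmc* at 1246 and 651 CPM. No *Gzmc* UMI was in its cells led by the mast cell proteases *Mcpt4* and *Cma1*.

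Outside these classes the genes were near 0, apart from *Gzmc* in neutrophil-like cells of the PBS-labelled library (6 UMIs, 31.9 CPM). The myocyte-like cells held 1 *Gzmb* UMI in that library (45.5 CPM) and no other UMI of the 10 genes. The 10 together had 6.85 CPM in the 9 other classes of the PBS-labelled library and 4.54 CPM in the DTX-labelled library, and 48.9% and 46.7% of these UMIs lay in 31 and 34 cells that held at least 2 of *Cd3e*, *Cd3g*, *Nkg7*, *Il2rb*, *Klrk1* and *Ctsw*. Without those cells the levels were 3.52 and 2.44 CPM, a drop that is partly fixed by the choice, since *Nkg7* is itself 1 of the 10 genes. In the DTX-labelled library, fibroblast-like cells had 36 of their 37 *Ifng* UMIs and all 49 of their *Xcl1* UMIs in a single cell, which also held 9 UMIs of *Nkg7* and 413 of *Col1a1*, a collagen gene of fibroblasts. In the PBS-labelled library, 1 epithelial-like cell held 74 of the 96 *Gzmc* UMIs of its class together with 333 UMIs of the keratin gene *Krt14*.

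The mast-like cluster had the highest *Gzmb* CPM of any class, at 4149 CPM (3855 to 4460) in 33 PBS-labelled cells and 2306 CPM (2063 to 2571) in 18 DTX-labelled cells. It had *Gzmc* at 1246 CPM (1087 to 1421) and 651 CPM (525 to 798), *Nkg7* at 107 and 14.1 CPM, and no UMI of *Gzma*, *Prf1*, *Ifng* or *Xcl1*. The cluster took its name from 7 of 7 mast cell markers, but its cells were of 2 kinds. In the PBS-labelled library, 19 cells had more UMIs of *Mcpt8* and *Prss34*, proteases of basophils, than of the mast cell proteases *Mcpt4* and *Cma1*, and 13 had fewer. *Gzmb* was found in all 19 of the former, at 5410 CPM (5018 to 5824), and in 7 of the latter, at 661 CPM (446 to 943), and all *Gzmc* was in the former. In the DTX-labelled library, 5 cells led by *Mcpt8* and *Prss34* had *Gzmb* at 9521 CPM (8373 to 10783), and 12 led by *Mcpt4* and *Cma1* at 348 CPM (248 to 476), with no *Gzmc* UMI. The remaining cell of each library had equal counts, and that of the DTX-labelled library held 66 of the 92 *Gzmc* UMIs and 39 of the 326 *Gzmb* UMIs of the cluster. *Gzmb* was lower in the DTX-labelled library over the whole cluster (log2 ratio -0.85, -1.04 to -0.66) and its CPM was higher among the 5 cells led by *Mcpt8* and *Prss34*. Of these, 1 cell held 146 of the 248 *Gzmb* UMIs, and the median per cell was 20 UMIs, beside 23 in the 19 PBS-labelled cells. This split was chosen after the values were seen.

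Between the libraries, the granzymes of NK-like and T-like cells differed in opposite directions. *Gzma* was 2.08-fold higher in the DTX-labelled library (log2 ratio 1.05, 0.96 to 1.15) and *Gzmc* 3.62-fold lower (log2 ratio -1.86, -1.97 to -1.75), from 3572 UMIs and 2193 CPM (2122 to 2266) to 858 UMIs and 605 CPM (566 to 647). *Gzmb* was higher by 0.45 on the log2 scale (0.33 to 0.56), from 677 CPM (637 to 718) to 922 CPM (873 to 974). Ratios were taken after adding 1 CPM. *Gzma* was the 1 member of 7 that was at least 2-fold higher, where 1.12% of 6348 genes were, and *Gzmc* the 1 that was at least 2-fold lower, where 1.29% were. The median gene had a log2 ratio of 0.05.

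The value of *Gzma* depended on which cells were used. It was 0.88 with up to 10% mitochondrial UMIs allowed, 0.80 without doublet removal and -2.05 with at most 2000 genes per cell, a limit the methods state, under which 82 PBS-labelled and 29 DTX-labelled cells remained in the class. The values of *Gzmc* under the same settings were -1.03, -1.45 and -2.71. Without the single cell highest in the gene in each library they were 1.03 for *Gzma* and -2.41 for *Gzmc*. With cells thinned to 2000 UMIs, *Gzmc* was detected in 23.3% of PBS-labelled and 16.6% of DTX-labelled cells. Thinned to 1000 UMIs these shares were 15.2% and 17.2%, and without thinning 32.0% and 31.8%. The lower share in the DTX-labelled library thus depended on the depth of thinning.

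Of the other members, *Prf1* was higher in the DTX-labelled library by 0.47 on the log2 scale (0.20 to 0.74) and *Nkg7* by 0.23 (0.12 to 0.33), and under the limit of 2000 genes their ratios were -1.10 and -0.10. *Ifng* had a log2 ratio of -0.44 (-0.75 to -0.14), or -0.81 without its highest cell in each library, and *Xcl1* one of -0.70 (-0.87 to -0.53). Summed over the 10 genes, the class had 8954 and 7244 UMIs, and the log2 ratio of the sum was -0.10, or 0.45 when *Gzmc* was left out.

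**Figure D2:**
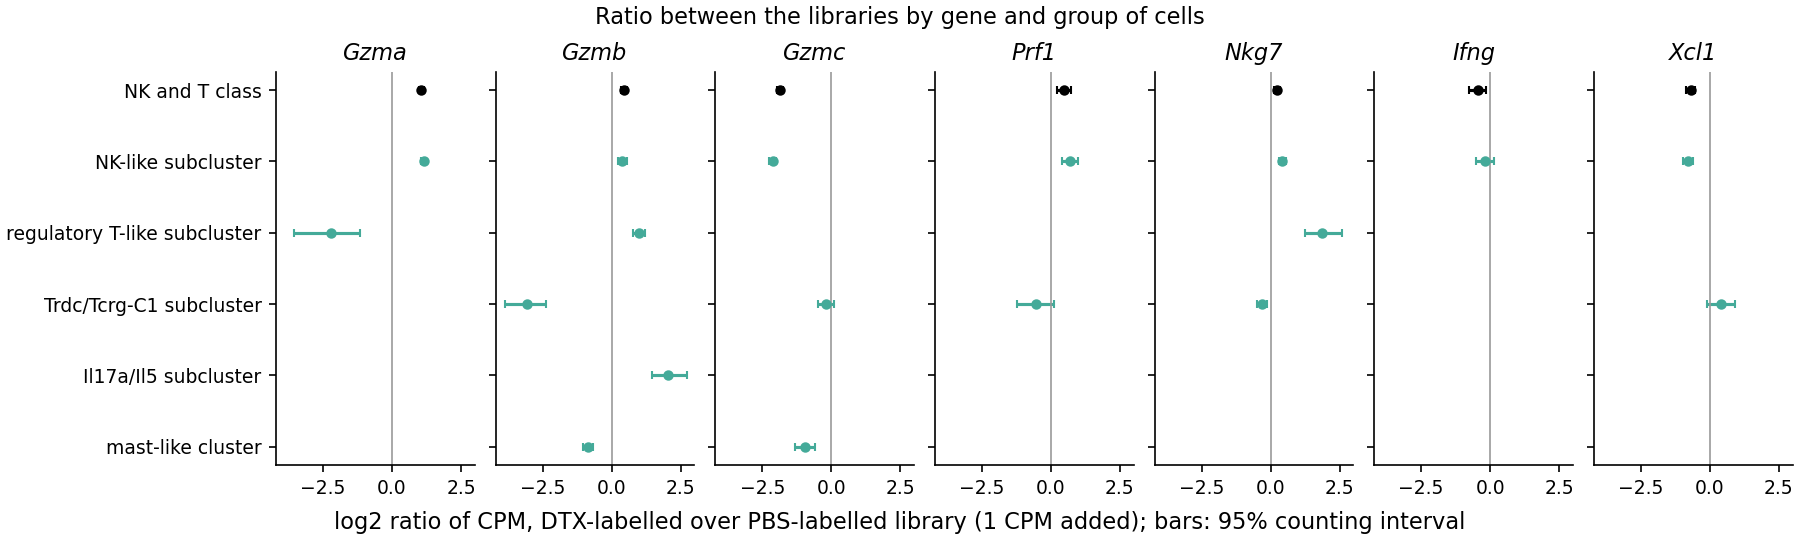
Log2 ratio of CPM, DTX-labelled over PBS-labelled library, of the 7 members with at least 50 UMIs (panels), in the NK-like and T-like class (black), its 4 subclusters and the mast-like cluster (green). Bars are 95% counting intervals, groups of cells with under 50 UMIs of a gene are left out, and *Gzmb* lies at 2.05 in 1 subcluster and at -3.07 in another.

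The 3 remaining granzymes were rare. *Gzme* had 17 UMIs in 3 cells of the class in the PBS-labelled library and 16 UMIs in 3 cells in the DTX-labelled library, and *Gzmf* had 3 UMIs in 3 cells and 21 UMIs in 4 cells. A single DTX-labelled cell held 13 of the 16 *Gzme* UMIs, and 17 of the 21 *Gzmf* UMIs were in 1 cell. *Gzmd* had no UMI in the class, and its only UMI in the cells used was in an epithelial-like cell of the PBS-labelled library. Among barcodes that the filters removed, 1 DTX-labelled barcode held 22 UMIs of *Gzmd*. The granzymes that were not members were as rare: *Gzmk* had 5 and 13 UMIs in the class, *Gzmm* 9 and 11, and *Gzmg* and *Gzmn* none.

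The UMIs of each gene were spread unevenly over cells. *Gzmc* was found in 72 of 225 PBS-labelled cells and 48 of 151 DTX-labelled cells, but 10 cells held 80.1% and 83.9% of its UMIs. Its highest cell had 541 UMIs, 5.66% of all RNA counted in that cell, and the median among positive cells was 5. In the DTX-labelled library the highest cell had 368 UMIs, 42.9% of the total, and the next had 91. *Gzma* was more even, with a median of 23 UMIs in 65 positive PBS-labelled cells and 33.5 in 48 positive DTX-labelled cells, highest values of 72 and 182, and 38.0% and 53.7% of its UMIs in the top 10 cells. *Nkg7* was the most even, with 20.7% and 24.2% in the top 10. *Ifng* was found in 61 cells of the PBS-labelled library and 27 of the DTX-labelled library, where 1 cell held 31.3% of its 147 UMIs.

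**Figure D3:**
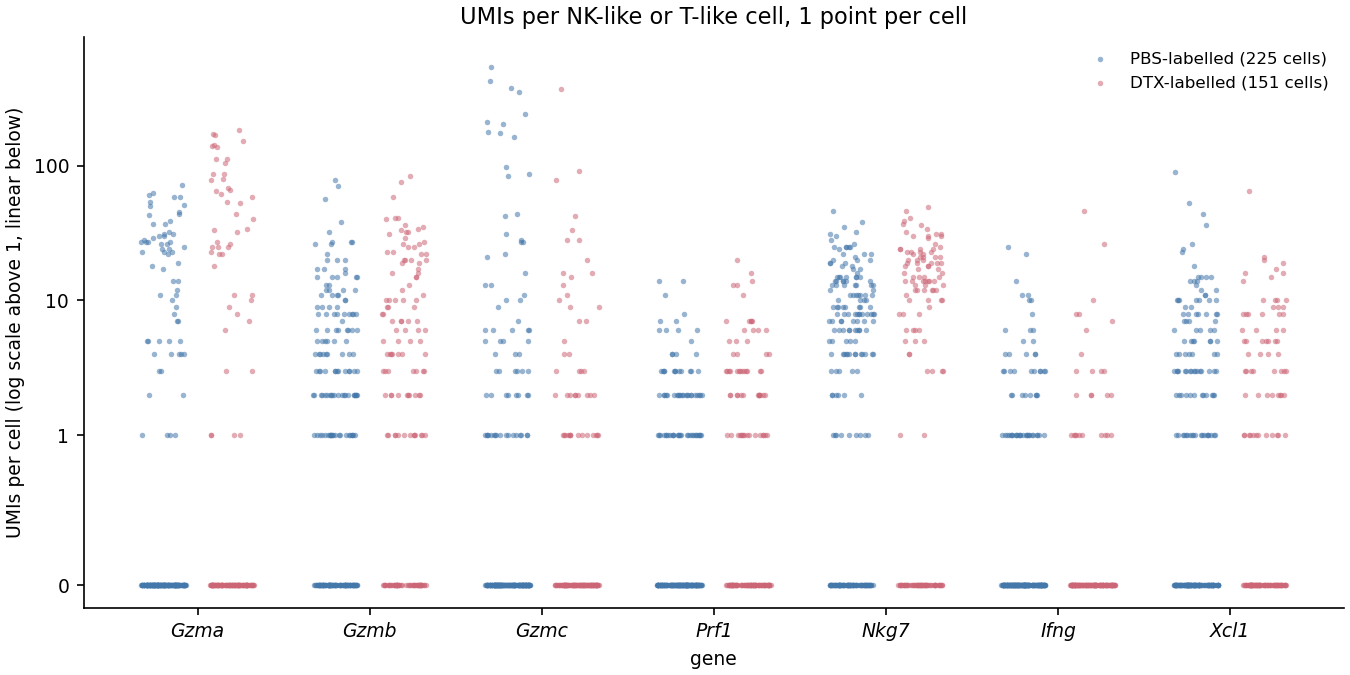
UMIs per cell (vertical axis, log scale above 1) of 7 members in the 225 PBS-labelled and 151 DTX-labelled NK-like and T-like cells, 1 point per cell. *Gzma* reaches 182 UMIs in the DTX-labelled and 72 in the PBS-labelled library, and 10 PBS-labelled cells but 1 DTX-labelled cell hold over 100 UMIs of *Gzmc*.

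Much of the *Gzmc* of the DTX-labelled library lay in barcodes that were not used. Of 2700 *Gzmc* UMIs in all its deposited barcodes, 36.5% were in cells used, 46.1% in barcodes with 6 to 10% mitochondrial UMIs and 15.9% in called doublets. For the UMIs of all genes in that library these shares were 67.0%, 18.6% and 7.62%. A single doublet barcode held 402 of the 429 *Gzmc* UMIs in doublets. In the PBS-labelled library, 82.9% of the 4789 *Gzmc* UMIs were in cells used, beside 77.0% for all genes. Among the 10 barcodes with the most *Gzmc*, 6 DTX-labelled ones and 1 PBS-labelled one had over 6% mitochondrial UMIs. For *Gzma*, 77.4% and 70.8% of the UMIs of the DTX-labelled and PBS-labelled library were in cells used. The lower *Gzmc* level given above thus holds for the cells that passed the filters, and the ratio moved to -1.03 when the mitochondrial limit was raised to 10%.

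In the PBS-labelled library, *Gzmc* and *Gzma* were abundant in different cells. The 10 cells of the class with the most *Gzmc* there held 2861 UMIs of it and, between them, 1 UMI of *Gzma* and 5 of *Gzmb*. The 10 cells with the most *Gzma* held 555 UMIs of *Gzma*, 100 of *Gzmb* and 2 of *Gzmc*. Both groups contained *Nkg7* in all 10 cells, and an NK receptor gene (*Ncr1*, *Klrb1c* or *Klre1*) in 7 and 10 of them. A CD3 gene, a marker of T cells, was in 6 of the cells with the most *Gzmc* and in 2 of those with the most *Gzma*. Among all deposited barcodes of the DTX-labelled library, the 10 with the most *Gzmc* held 2046 UMIs of it, no *Gzma* and 10 UMIs of *Gzmb*. Of these barcodes, 7 had an NK receptor gene and 4 a CD3 gene. Within the class of that library, the cells with the most *Gzmc* (368, 91 and 78 UMIs) also had no *Gzma*. The cell with 78 was in the *Trdc* and *Tcrg-C1* subcluster described below, where no cell had *Gzma*. The 10 cells of that class with the most *Gzmc*, from 16 to 368 UMIs, held 720 UMIs of *Gzmc*, 381 of *Gzma* in 3 cells and 91 of *Gzmb* in 7 cells. Those 3 cells, all NK-like, had 42, 33 and 16 UMIs of *Gzmc*, below the 163 to 541 of the PBS-labelled set. The 2 sets are thus at unlike levels. They are also of unlike makeup, since the PBS-labelled set was all NK-like and the DTX-labelled set drew on other subclusters as well. The 10 cells of that class with the most *Gzma* held 62 UMIs of *Gzmc* in 6 cells.

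**Figure D4:**
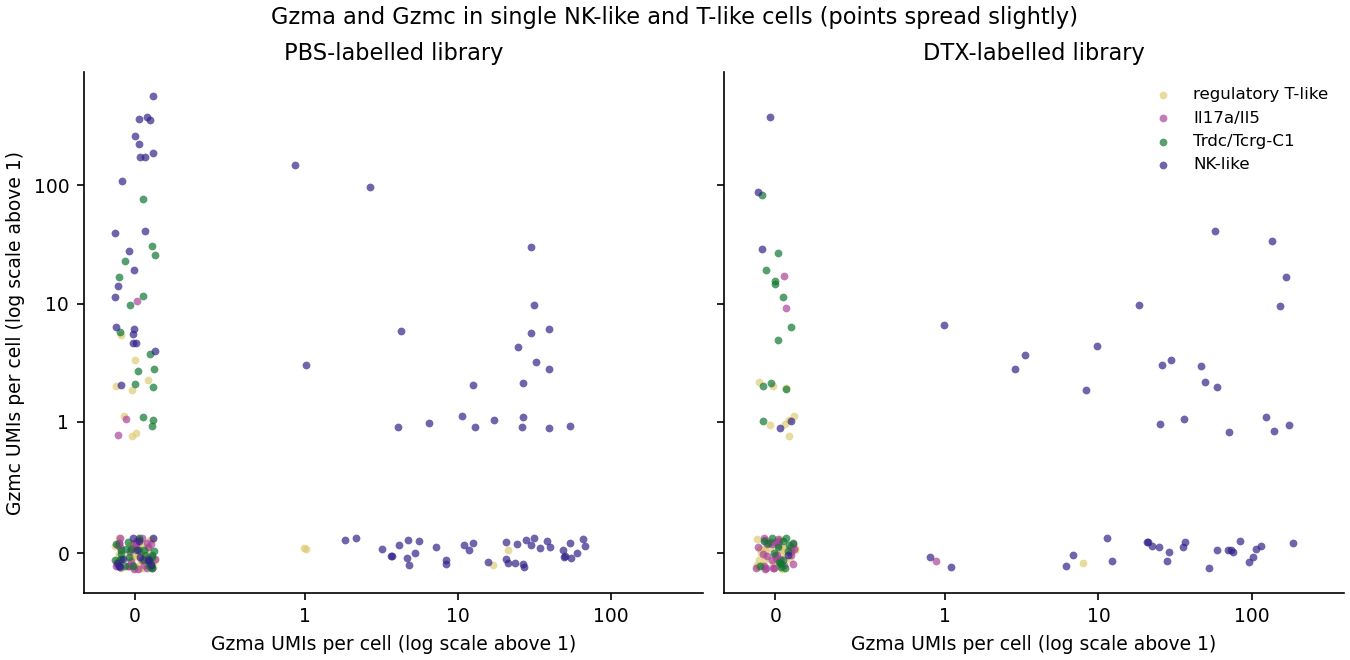
*Gzma* UMIs (horizontal axis) against *Gzmc* UMIs (vertical axis), both on a log scale above 1, in single NK-like and T-like cells, 1 panel per library and coloured by subcluster, with points spread slightly. In the PBS-labelled library, the 10 cells with the most *Gzmc* (163 to 541 UMIs) have at most 1 UMI of *Gzma* each, and all are in the NK-like subcluster.

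Pairs of genes were also compared by detection in thinned cells. In the PBS-labelled library, *Gzmb* was found in 71.9% of cells with *Gzma* and in 35.2% of cells without it, while *Gzmc* was found in 15.8% of cells with *Gzma* and 25.9% of those without it. In the DTX-labelled library, *Gzmb* was in 74.4% and 34.3%, and *Gzmc* in 16.3% and 16.7%. *Gzmc* went with *Xcl1*, which was in 32 of 51 PBS-labelled cells with *Gzmc* (62.7%) and in 26.2% of those without it, and in 15 of 25 DTX-labelled cells with *Gzmc* and 20.6% of those without it. *Prf1* was almost never seen without *Nkg7*, which was in 34 of 37 PBS-labelled and 35 of 37 DTX-labelled cells with *Prf1*. All pairs were taken over the whole class, whose subclusters, given below, differed in these genes. *Xcl1*, for instance, had 1 PBS-labelled and 0 DTX-labelled UMIs in the regulatory T-like subcluster, and the same in the *Il17a* and *Il5* subcluster. Pairs within a subcluster were not compared. At least 1 of the 10 genes was found in 78.1% and 74.2% of thinned cells and at least 4 in 23.7% and 24.5%.

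Clustering the class again, without the members and related effector genes, gave 4 subclusters. The NK-like subcluster (96 PBS-labelled and 52 DTX-labelled cells) had 7 of 8 NK markers raised, an NK receptor gene in 83.3% and 96.2% of its cells and a CD3 gene in 35.4% and 26.9%. The regulatory T-like subcluster (53 and 37 cells) held a CD3 gene in every cell and *Foxp3*, the transcription factor of regulatory T cells, in 71.7% and 54.1%. The other two stayed unnamed. One (40 and 29 cells) had *Tcrg-C1*, *Cd3e* and *Cd3g* among its leading genes, with *Trdc*, the constant gene of the T cell receptor delta chain, in every cell. The other (36 and 33 cells) was led by *Il17a*, *Il5* and *Il13*, and its makeup differed between libraries, with *Trdc* at 692 and 3845 CPM and *Il13* at 976 and 35.9 CPM.

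The NK-like subcluster held over 50% of the UMIs of each of the 7 genes in the class. It had 97.1% and 99.7% of the *Gzma* UMIs of the class, 92.8% and 74.4% of *Gzmc*, 92.1% and 82.5% of *Xcl1* and 85.7% and 98.0% of *Ifng*. Its shares of *Prf1* (75.7% and 84.9%), *Nkg7* (59.8% and 66.1%) and *Gzmb* (56.6% and 52.0%) were lower. *Gzma* was at 1938 CPM (1839 to 2042) in the PBS-labelled and 4308 CPM (4145 to 4476) in the DTX-labelled library, a log2 ratio of 1.15 (1.06 to 1.25), and *Gzmc* at 4529 CPM (4376 to 4686) and 1044 CPM (965 to 1128), one of -2.12 (-2.24 to -1.99). *Gzma* was the only 1 of 7 members at least 2-fold higher, where 1.33% of 3751 genes were, and *Gzmc* the only 1 at least 2-fold lower, where 2.35% were. *Prf1* had a log2 ratio of 0.69 (0.40 to 1.00), *Nkg7* one of 0.43 (0.30 to 0.56), *Xcl1* one of -0.80 (-0.98 to -0.62), and *Ifng* one of -0.19 (-0.51 to 0.13), whose interval includes 0. The median depth of these cells was 7330 and 10966 UMIs, and *Gzma* was found in 61.7% and 78.8% of them after thinning. A finer clustering split the subcluster into 57 and 25 cells with *Gzmc* at 8210 and 2266 CPM, and 39 and 27 cells with *Gzmc* at 205 and 237 CPM, where its log2 ratio was 0.21 (-0.27 to 0.68). *Gzma* was higher in the DTX-labelled library in both, with log2 ratios of 1.73 and 0.67.

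The regulatory T-like cells expressed *Gzmb* with almost none of the rest. *Gzmb* was at 651 CPM (577 to 731) in the PBS-labelled and 1295 CPM (1185 to 1413) in the DTX-labelled library, found in 37 of 53 and 26 of 37 cells, while *Prf1* had 0 and 5 UMIs and *Xcl1* 1 and 0. *Nkg7* was at 57.1 and 212 CPM, in 7 cells of each library. *Ifng* had 33 UMIs in 7 cells (75.3 CPM) and 3 UMIs in 3 cells (7.68 CPM). *Gzma* had 43 UMIs in 4 cells (98.2 CPM) and 8 UMIs in 1 cell (20.5 CPM). *Gzmc* was at 38.8 and 28.2 CPM.

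The *Trdc* and *Tcrg-C1* subcluster had the highest *Nkg7* of the 4, at 2808 CPM (2585 to 3045) and 2278 CPM (2070 to 2501), in 39 of 40 and 29 of 29 cells. It had no UMI of *Gzma* or *Ifng*, *Prf1* at 249 CPM (186 to 327) and 171 CPM (118 to 240), and *Gzmc* at 1088 and 955 CPM. *Gzmb* was at 791 CPM (675 to 921) in the PBS-labelled library, from 165 UMIs in 12 cells of which 1 held 78, and at 93.4 CPM (55.4 to 148) in the DTX-labelled library, from 18 UMIs in 7 cells. In the *Il17a* and *Il5* subcluster, *Gzmb* was at 112 CPM (74.4 to 162) and 467 CPM (381 to 565), from 28 UMIs in 8 cells and 104 UMIs in 16 cells. There *Prf1* had 0 and 1 UMI and *Nkg7* 2 and 4. *Gzmb* thus ranged from 93.4 to 1295 CPM over the 4 subclusters of both libraries, and *Gzmc* from 28.2 to 4529 CPM.

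**Figure D5:**
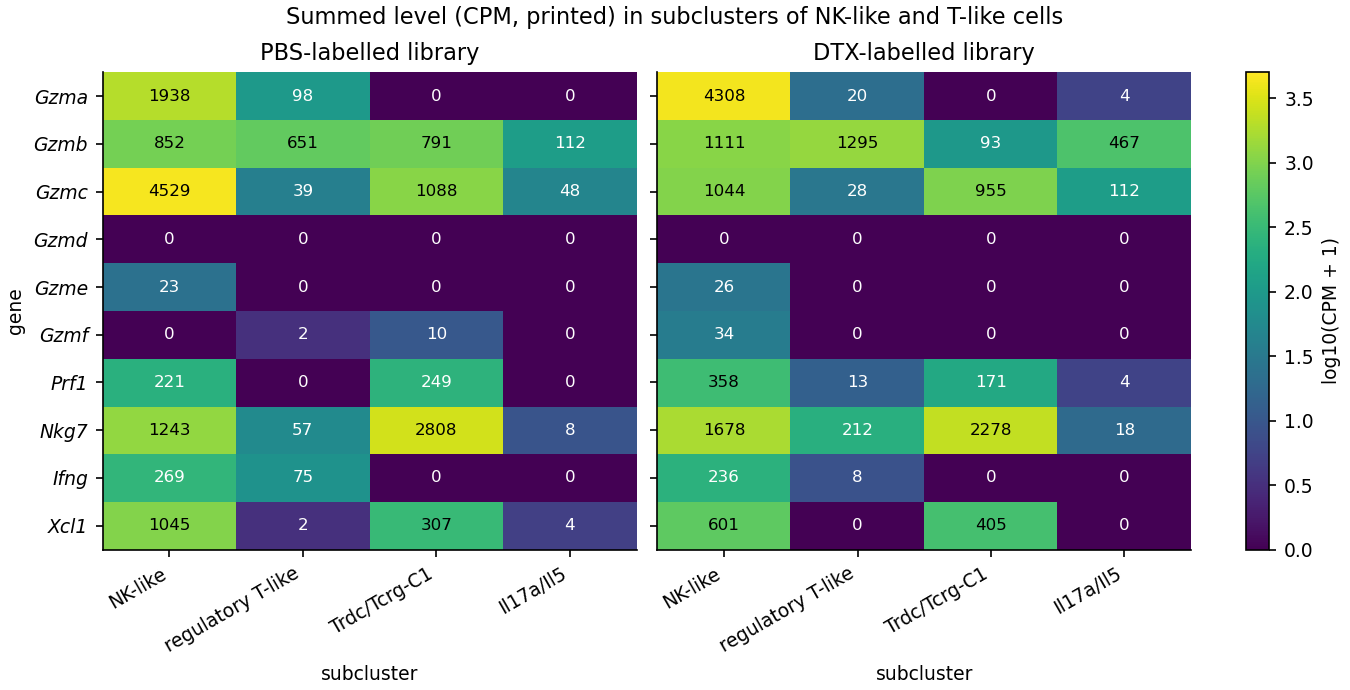
Summed level (CPM, printed, with colour for log10(CPM + 1)) of the 10 genes (rows) in the 4 subclusters of NK-like and T-like cells (columns), 1 panel per library. *Gzma* is concentrated in the NK-like column, *Nkg7* is highest in the *Trdc* and *Tcrg-C1* column, and *Gzmb* stands at 93.4 CPM or more in every column.

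The promoters of the 3 main granzymes are shown because the genes differed in where and in which direction they were expressed. Each is the 250 bases before the gene's start in RefSeq (GRCm38.p6), minus strand, with capitals for the letters TGTGGT (the core bound by Runx factors), TCACAC (bound by T-box factors such as Eomes), TGANTCA (bound by AP-1), AGATAA (bound by Gata factors) or ACAGGAAG (bound by Ets factors), on either strand:
Gzma, chr13:113100982-113101231: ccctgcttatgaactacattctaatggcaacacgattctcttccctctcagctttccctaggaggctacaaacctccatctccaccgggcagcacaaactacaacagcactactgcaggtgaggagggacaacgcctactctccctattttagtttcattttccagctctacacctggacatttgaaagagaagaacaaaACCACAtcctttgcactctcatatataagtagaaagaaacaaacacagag
Gzmb, chr14:56262335-56262584: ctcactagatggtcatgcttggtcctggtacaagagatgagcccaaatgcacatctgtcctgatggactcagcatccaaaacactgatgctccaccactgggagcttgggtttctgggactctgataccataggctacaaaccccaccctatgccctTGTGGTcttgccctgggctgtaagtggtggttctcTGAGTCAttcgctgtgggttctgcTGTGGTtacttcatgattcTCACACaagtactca
Gzmc, chr14:56234658-56234907: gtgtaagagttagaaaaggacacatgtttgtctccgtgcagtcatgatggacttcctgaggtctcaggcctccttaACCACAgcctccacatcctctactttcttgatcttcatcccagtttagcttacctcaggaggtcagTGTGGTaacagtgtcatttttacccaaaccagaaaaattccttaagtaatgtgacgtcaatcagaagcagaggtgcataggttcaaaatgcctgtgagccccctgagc
The windows searched ran from 250 bases before to 50 bases after the start. TGTGGT was found at 9 of the 10 members, all but *Ifng*, and at 16.8% of 32851 promoters. The members are not independent in this, since the promoters of *Gzmd* and *Gzme* were 93.4% and those of *Gzmc* and *Gzme* 82.7% identical. TCACAC was found at *Gzmb*, *Nkg7* and *Xcl1* and at 14.5% of all promoters, and TGANTCA at *Gzmb* alone and at 7.81%. AGATAA and ACAGGAAG were found at no member and at 11.2% and 3.58% of all promoters. These are matches of letters, and no binding was measured.

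Of 9 transcription factors listed with these genes, 7 had at least 50 UMIs in the class and 0 passed 2-fold, and their median log2 ratio was 0.30. Few genes of the class passed 2-fold at all, 1.12% of 6348 higher and 1.29% lower, so a count of 0 in a short list says little. *Runx3*, which drives cytotoxic programmes, was at 215 and 312 CPM (log2 ratio 0.54, 0.33 to 0.74) and *Eomes*, a T-box factor of NK cells, at 97.0 and 138 CPM (0.51, 0.20 to 0.82). *Prdm1* had a ratio of 0.30 (-0.27 to 0.90). Of the receptors and cytokines that feed the programme, 0 of 6 measured passed 2-fold, at the same background. *Il2rb*, the receptor chain shared by interleukin 2 and interleukin 15, was at 1138 and 1124 CPM. *Il15* itself was highest in neutrophil-like cells, at 154 and 130 CPM, *Il18* in Langerhans-like cells, at 257 and 278 CPM, and *Il12b* in dendritic-like cells, at 81.5 and 52.1 CPM.

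Genes for loading and releasing granules were all measured and 0 of 12 passed 2-fold, with a median log2 ratio of 0.13. Over all 6348 genes of the class, 1.12% were at least 2-fold higher and 1.29% lower, which is the background for each list here. *Srgn*, whose proteoglycan holds granzymes in the granule, was at 2152 and 2587 CPM, and *Ctsc*, the protease that activates granzymes, at 82.9 and 109 CPM. Among the 4 granzyme inhibitors, *Serpinb9*, the inhibitor of granzyme B, was at 514 and 445 CPM in the class (log2 ratio -0.21, -0.36 to -0.06), about as high as in Langerhans-like cells (497 and 414 CPM), and *Serpinb9b* at 15.3 and 31.8 CPM was the 1 that reached 2-fold. Of 5 measured among 8 other effector ligands, 1 was at least 2-fold lower, the chemokine gene *Ccl4* (log2 ratio -1.47, -2.20 to -0.88), and 4 of the 5 were below 0. *Ccl5* was at 839 and 511 CPM (-0.71, -0.85 to -0.58).

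The receptors of the secreted members were found on other cells as well. *Xcr1* had 1 UMI in NK-like and T-like cells and was highest in the unnamed cluster 8, led by class II antigen presentation genes, at 75.7 and 30.6 CPM. *Ifngr1* was at 554 and 630 CPM in NK-like and T-like cells and at 153 and 192 CPM in macrophage-like cells. Of 14 interferon gamma targets, 13 were measured in macrophage-like cells, where 0 were at least 2-fold higher and 3 at least 2-fold lower in the DTX-labelled library, against 1.61% and 3.34% of 10167 genes. The 3 were *Cxcl9*, a chemokine gene, at 60.3 and 12.1 CPM (log2 ratio -2.23), *Ciita*, the regulator of class II genes, at 9.94 and 4.44 CPM (-1.01), and the class II gene *H2-Aa* at 8959 and 3638 CPM (-1.30). Of the 13, 9 had log2 ratios below 0, and their median was -0.47, beside 0.06 over all genes. *Irf1* was at 32.7 and 20.4 CPM and *Cxcl10* at 52.7 and 61.6 CPM. The makeup of the macrophage-like cells also differed between the libraries. At resolution 0.5, a macrophage cluster led by *C1qa* and *C1qb* had 1455 PBS-labelled and 1713 DTX-labelled cells. Another, led by *Chil3* and *Arg1*, had 110 and 2436. The parts of this makeup and of *Ifng* in the values of the targets were not tested. In NK-like and T-like cells, 1 of 10 measured targets was at least 2-fold higher, where 1.12% of all genes were. It was *H2-Aa* at 98.8 and 250 CPM, beside the higher levels of macrophage-like cells given above.

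The genes most like the summed granzymes across NK-like and T-like cells, by Pearson's r of log-normalised levels over 225 and 151 cells and 6127 genes, were *Tyrobp*, the adaptor of NK receptors (0.57 and 0.61), *Irf8* (0.49 and 0.65), *Ms4a4b* (0.49 and 0.57), *AW112010* (0.47 and 0.61), *Ccl5* (0.49 and 0.45), *Anxa2*, *Klre1*, *Dusp2*, *Txk* and *H2-Q6* (0.39 and 0.39). Cells of 1 library share its depth and free RNA, so these are descriptions. The class also joins subclusters that differed in the granzymes, and *Klre1* and *Txk* were among the markers that named the NK-like one. Values of r within a subcluster were not computed. Among the members that are not granzymes, r with that sum was 0.31 and 0.50 for *Prf1*, 0.39 and 0.36 for *Nkg7*, 0.43 and 0.36 for *Ifng* and 0.54 and 0.41 for *Xcl1*.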

How the data were processed

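The libraries were made with a 10x 3′ kit from live wound cells of 3 mice per group. The authors deposited raw UMI counts per gene and barcode for each library, made with Cell Ranger (6.1.1 in the submitters' processing notes, and another version in the methods) on mm10. All mapping to groups came from the labels, and 0 columns stayed unmapped. Barcodes with at least 500 genes, at most 6% mitochondrial UMIs and no doublet call by Scrublet (scanpy 1.11.5) were used. Where Scrublet marked under 0.5% or over 20% of cells, the 8% with the highest scores were removed instead, which applied to the DTX-labelled library. This left 7944 cells with 81235634 UMIs and 6613 cells with 54872675 UMIs. The limit of 2000 genes per cell in the methods was used only as an alternative.

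Cells were clustered in Seurat 5.3.0 without the 10 genes and the other granzymes (2000 variable genes, 30 components, resolution 0.2). Subclusters (20 components, resolution 0.5) were made without these and without related effector genes. A cluster was named from at least 3 markers of its list that were raised 2-fold. Names that 2 reference levels did not share were dropped, a rule set after the clusters were seen. Levels were summed as CPM with exact Poisson intervals, shares have exact Clopper-Pearson intervals after thinning to 2000 UMIs, and log2 ratios after adding 1 CPM have exact conditional binomial intervals of the ratio itself. All cover counting error only, at 95%. No p-value was computed, since each group is 1 library. The ratio calculation was tested on simulated data. Gene positions are from GENCODE for GRCm38 and promoters from RefSeq.

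The members, the lists (other granzymes, granule loading and release, granzyme inhibitors, other effector ligands, receptors of the secreted members, cytokine input, transcription factors, interferon gamma targets) and the cell type markers were chosen with earlier results of these data known. Named genes were the 10 members, the listed genes and the 10 genes, detected in at least 10% of NK-like and T-like cells of both libraries, with the highest lower r with the summed granzymes. Alternatives changed the limits on genes and mitochondrial UMIs, doublet removal, clustering, thinning, the added CPM and the scaling. The values of 1 listed gene are not reported here.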

Additional observations from a re-analysis of the deposited data

Results flagged for a closer look

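The log2 ratio between the libraries (DTX-labelled over PBS-labelled) had opposite signs in different cells for 3 genes, each with a counting interval clear of 0, and none of these differences between cells was tested. *Gzma* was at 1.15 in the NK-like subcluster and at -2.21 in the regulatory T-like subcluster, where it had 43 UMIs in 4 cells and 8 UMIs in 1 cell. *Gzmb* was at 0.38 in the NK-like, 0.99 in the regulatory T-like and 2.05 in the *Il17a* and *Il5* subcluster, but at -0.85 in mast-like cells and -3.07 in the *Trdc* and *Tcrg-C1* subcluster. In that last subcluster 1 PBS-labelled cell held 78 of 165 *Gzmb* UMIs, and the makeup of the *Il17a* and *Il5* subcluster and of the mast-like cluster differed between the libraries. *Nkg7* was at 0.43 in the NK-like and 1.88 in the regulatory T-like subcluster, where 1 DTX-labelled cell held 31 of 83 UMIs, and at -0.30 in the *Trdc* and *Tcrg-C1* subcluster.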

How the results depend on the processing

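No paired analysis was possible because each group is 1 library. With at most 2000 genes per cell, the log2 ratio in NK-like and T-like cells was -2.05 for *Gzma*, -1.10 for *Prf1* and -0.10 for *Nkg7*, all reversed, and -1.01 for the summed members. Under this limit 0 members were at least 2-fold higher and 5 lower. The class then held 3.31% and 1.17% of the PBS-labelled and DTX-labelled cells, or 82 and 29 cells. The cause was not tested. Without doublet removal the sum was at -0.16 and 0 members were at least 2-fold higher. With up to 10% mitochondrial UMIs, 0 members were at least 2-fold higher and the class held 2.72% of DTX-labelled cells. Centred on the median gene, the sum was at -0.15. Chosen after seeing the data were the sum without *Gzmc* (0.45) and leaving out the 5 cells highest in each gene, which gave a sum of 0.0094, 0 members higher and 2 lower. The share of all genes past 2-fold is not given for these alternatives, so the counts of members have no background beside them. At resolution 1.0, *Gzmc* had a log2 ratio of 0.21 in 1 of the subclusters that divide the NK-like cells. Keeping the members in the clustering gave the same 376 cells in the class, so the ratios could not change. Clustering at resolution 0.5 again gave 225 and 151 cells and the same ratios. Adding 10 or 0.1 CPM and leaving the members out of the total changed the ratios little, most for *Ifng*, from -0.44 to -0.41 with 10 CPM added. Over 11 alternatives, *Gzmb* stayed between 0.18 and 0.54, *Gzmc* between -2.71 and -1.03, *Ifng* between -3.34 and -0.41 and *Xcl1* between -2.00 and -0.68. *Gzmd*, *Gzme* and *Gzmf* stayed under 50 UMIs, so their ratios were not compared. Shares of cells with a gene depended on thinning. Thinned to 1000 UMIs, *Gzmc* was in 15.2% of PBS-labelled and 17.2% of DTX-labelled cells of the class.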

Other observations

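*Gzmd*, which had no UMI in the cells used from the DTX-labelled library, had 23 UMIs among all its deposited barcodes, 22 of them in a barcode with 6 to 10% mitochondrial UMIs that also held *Gzmc*. In the PBS-labelled library its total over all barcodes was 1 UMI. Of the barcodes with 6 to 10% mitochondrial UMIs, 40 in the DTX-labelled library held *Gzmc*, at up to 252 UMIs, and 32 in the PBS-labelled library did, at up to 189. Called doublets held 444 *Gzma* UMIs in 12 barcodes of the PBS-labelled library and 414 in 8 barcodes of the DTX-labelled library. The genes least like the summed granzymes across NK-like and T-like cells were *Ramp3* (r of -0.40 and -0.47), *Furin* (-0.34 and -0.45) and *Hlf* (-0.34 and -0.34). This is a description over 225 and 151 cells of all subclusters together.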
